A study of Mus musculus with 2 samples.

Results

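Interferon-stimulated genes are the genes that cells switch on when an interferon binds its receptor. The 38 described here were matched by symbol among 55450 gene rows, and all 38 were found in both count matrices. Of these, 25 are genes that type I interferon classically induces, and 13 are linked to interferon gamma: the guanylate-binding proteins, the immunity-related GTPases, the proteasome subunits Psmb8 and Psmb9, the peptide transporter Tap1 and the transcription factor Irf1. The division follows common usage and is not exclusive, since either interferon induces many genes of both lists.

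The 2 single-cell RNA libraries, 1 per group, came from the abdominal aortic aneurysm of Apoe-/- mice aged 12 weeks, induced with angiotensin II. Deletion of Apoe, which raises plasma cholesterol, and angiotensin II are common to both groups. The groups differ in treatment: the series' design names DMSO, the vehicle, and an unidentified inhibitor, and the titles D_A and IN_A were read by their initials as DMSO and inhibitor. Neither the inhibitor's identity, dose and schedule nor how many mice were pooled was stated, and the aortic segment of each cell is unknown, although the aorta was cut in segments before digestion.

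Interferons are secreted proteins that alert cells to viruses and to misplaced nucleic acid. Type I interferons act through the receptor Ifnar and a complex that includes Stat2 and Irf9 and binds the interferon-stimulated response element. Interferon gamma, made mainly by T cells and natural killer cells, acts through Ifngr and the gamma-activated site, and many of its later targets also depend on Irf1. Both classes of gene are known to be expressed by macrophages and endothelial cells of diseased arteries.

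Depth was 101139161 unique molecular identifiers (UMIs, counts of captured RNA molecules) over 9125 barcodes for DMSO and 79648307 UMIs over 8149 barcodes for the inhibitor; 16 barcodes occurred in both libraries. After filtering, 8411 DMSO cells (median 7935 UMIs) and 7417 inhibitor cells (median 8991 UMIs) remained. They were clustered without the 38 genes, giving 35 clusters, of which 26 were named in 11 classes from marker genes; 9 clusters (1919 DMSO and 919 inhibitor cells) stayed unnamed. Comparisons were confined to classes represented by 100 or more cells per library: smooth muscle-like (781 DMSO and 3083 inhibitor cells), fibroblast-like (2005 and 1852), macrophage-like (1494 and 583), endothelial-like (731 and 494) and Schwann-like (453 and 226). None of their own 8 markers each was at 0. With 1 library per group there is no replicate check and no test, so differences between the treatments cannot be told apart from differences between animals or preparations.

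Promoters, as windows of 300 bases from 250 before to 50 after the start in RefSeq on GRCm38.p6, were at hand for 29 of the 38 genes, with 34 start sites. The core of the interferon-stimulated response element (GAAA, any 2 bases, GAAA; both strands, overlapping matches counted) was present in 17 of the 34 windows (50.0%), against 3.44% of all 32851 windows. The core of the gamma-activated site (TTC, any 3 bases, GAA, which reads alike on both strands) was present in 9 of the 34 (26.5%), against 8.30% of all windows. The lists did not divide cleanly by motif: 10 of 18 type I genes and 6 of 11 gamma-linked genes held the first, and 4 of 18 and 5 of 11 held the second. A match describes letters in a window and does not show binding. The 150 bases before the start are given for 6 members that recur in the results, 5′ to 3′ on the strand of the gene, with matches in capitals.

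Isg15, a ubiquitin-like modifier, chr4:156200819-156200968, minus strand, held 3 overlapping response elements that begin 78, 72 and 66 bases before the start.
Isg15: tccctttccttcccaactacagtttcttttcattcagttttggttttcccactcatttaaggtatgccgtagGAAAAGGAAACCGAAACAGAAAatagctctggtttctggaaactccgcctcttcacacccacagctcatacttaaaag
Ifit1, which binds foreign RNA and blocks its translation, chr19:34640739-34640888, plus strand, held 2 response elements, both on the opposite strand.
Ifit1: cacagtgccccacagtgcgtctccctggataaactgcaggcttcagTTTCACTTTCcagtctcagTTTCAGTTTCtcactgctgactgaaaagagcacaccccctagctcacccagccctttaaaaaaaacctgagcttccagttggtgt
Rsad2, the antiviral enzyme viperin, chr12:26456453-26456602, minus strand, held 1 response element.
Rsad2: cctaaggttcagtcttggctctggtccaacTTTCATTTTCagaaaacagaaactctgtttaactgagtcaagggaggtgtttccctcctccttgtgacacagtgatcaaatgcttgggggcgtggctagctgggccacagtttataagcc
Irf1, a transcription factor, chr11:53769864-53770013, plus strand, held 1 gamma-activated site and no response element in these bases.
Irf1: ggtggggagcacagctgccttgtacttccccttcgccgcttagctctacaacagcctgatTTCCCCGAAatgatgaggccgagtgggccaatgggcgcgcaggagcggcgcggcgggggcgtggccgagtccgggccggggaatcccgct
Gbp7, a guanylate-binding protein, chr3:142530186-142530335, plus strand, held 2 gamma-activated sites and, nearer the start, 1 response element.
Gbp7: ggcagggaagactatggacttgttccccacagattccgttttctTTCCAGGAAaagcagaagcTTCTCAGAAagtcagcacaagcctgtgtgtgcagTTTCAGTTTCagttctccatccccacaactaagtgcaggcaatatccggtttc
Igtp, an immunity-related GTPase, chr11:58199406-58199555, plus strand, held 1 of each, with 2 lower-case bases between them.
Igtp: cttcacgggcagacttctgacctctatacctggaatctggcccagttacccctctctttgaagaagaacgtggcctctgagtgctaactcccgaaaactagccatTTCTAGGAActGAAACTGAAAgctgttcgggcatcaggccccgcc

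In the DMSO library the type I genes were highest in neutrophil-like, macrophage-like, endothelial-like and Schwann-like cells and lowest in smooth muscle. Without Ifi27l2a, which is treated separately, the other 24 type I genes summed to 2331 CPM (UMIs per 1000000 of the class; exact 95% Poisson interval 2197 to 2472) in 241 neutrophil-like cells, 1897 CPM (1873 to 1921) in macrophage-like cells, 1838 CPM in endothelial-like cells and 1785 CPM in Schwann-like cells. Fibroblast-like cells held 826 CPM and smooth muscle-like cells 292 CPM. UMIs mark the 3′ end of each transcript, so levels were not divided by length. All intervals given here cover counting error only.

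Among the 9 classes with at least 100 DMSO cells, 9 of the 25 type I genes were highest in neutrophil-like cells. These were Ifit1 (164 CPM), Isg15, Rsad2, the RNA-sensing Oasl2 (246 CPM), Oas2 (78.7 CPM) and Oas3 (55.9 CPM), the Isg15-removing protease Usp18 (31.1 CPM), Rtp4 (164 CPM) and Trim30a (234 CPM). Isg15 stood at 364 CPM (313 to 422) there and at 270 CPM (250 to 291) in Schwann-like cells, the next class. Ifit1 did not separate them, at 152 CPM (137 to 168) in Schwann-like cells, within the neutrophil-like interval of 130 to 204.

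The neutrophil-like Rsad2 level came from few cells. It reached 315 CPM with a UMI in 12.9% of neutrophil-like cells, whose median depth was 1884 UMIs, whereas in endothelial-like cells 224 CPM came from 44.2% of cells at a median of 5388 UMIs. In smooth muscle-like cells, deeper at 14582 UMIs, 2.56% of cells held an Rsad2 UMI.

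Macrophage-like cells were highest for 7 type I genes: Oas1a (49.8 CPM), the transcription factors Irf7 (117 CPM), Irf9 (81.2 CPM) and Stat2 (64.0 CPM), the antiviral GTPase Mx1 (32.7 CPM), the RNA helicase Ifih1 (65.1 CPM) and the nucleic acid sensor Zbp1 (84.6 CPM). Oas1a and Mx1 reached at most 10.4 and 10.8 CPM in any other ranked class. Schwann-like cells were highest for Ifit2 (62.9 CPM), Ifit3 (149 CPM), Xaf1 (111 CPM), the ADP-ribosyltransferase Parp14 (163 CPM) and the nucleotide kinase Cmpk2 (34.6 CPM). Endothelial-like cells were highest for Bst2, or tetherin, which holds budding viruses at the cell surface (505 CPM, 488 to 522), and for Ifi35 (74.8 CPM); lymphatic endothelial-like cells were highest for Ifi44 (70.2 CPM). For 10 of the 25 type I genes the interval of the next class overlapped that of the highest. These were Ifit1, Ifit2, Oas2, Oas3, Irf9, Stat2, Usp18, Ifi35, Ifi44 and Cmpk2. Overlap of intervals does not show that the levels are equal.

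The 13 gamma-linked genes had another order. They summed to 1564 CPM (1492 to 1639) in T cell-like cells, 1445 CPM (1416 to 1474) in endothelial-like cells, 1071 CPM in Schwann-like cells and 868 CPM in macrophage-like cells. T cell-like cells were highest for Psmb8 (556 CPM), Psmb9 (139 CPM) and Tap1 (135 CPM), which cut and transport peptides for MHC class I and lie together on chromosome 17 (GRCm38, 34181987 to 34201454), and for the GTPases Igtp (94.2 CPM) and Ifi47 (110 CPM). Schwann-like cells were highest for Gbp3 (99.1 CPM), Gbp5 (42.6 CPM), Gbp7 (153 CPM) and Irgm1 (62.5 CPM), and neutrophil-like cells for Irf1 (234 CPM) and Gbp2 (124 CPM). The highest and the next class overlapped for 6 of the 13: Irf1, Gbp2, Gbp4, Gbp5, Gbp7 and Irgm1. The 39 dendritic-like DMSO cells, too few to rank, summed to 2718 CPM, of which Psmb8 gave 53.5%.

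Endothelium stood highest for the remaining 2 gamma-linked genes. Iigp1, a GTPase that attacks parasite vacuoles, was at 350 CPM (336 to 365), against 146 CPM in lymphatic endothelial-like and 13.9 CPM in macrophage-like cells. Gbp4 was at 90.2 CPM in endothelial-like and 74.4 CPM in T cell-like cells, and no UMI of it was seen in 453 DMSO or 226 inhibitor Schwann-like cells (3 cells of each total, the limit used here for a count of 0, are 0.662% and 1.33%). In the inhibitor library, where 5 classes could be ranked, endothelial-like cells were highest for 11 of the 13 gamma-linked genes and macrophage-like cells for 14 of the 25 type I genes.

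Ifi27l2a, which encodes a small membrane protein of the Ifi27 family, made up nearly all of the type I signal of 1 named class. Adipocyte-like cells held 9804 CPM of it in the DMSO library (338 cells) and 12270 CPM in the inhibitor library (34 cells), with a UMI in every cell. The DMSO level comes from unlike clusters: cluster 7 held 10417 CPM (290 DMSO and 34 inhibitor cells), and cluster 23 (48 DMSO cells, no inhibitor cell), led by the brown fat genes Ucp1 and Cidea but also by the endothelial genes Selp and Aplnr, held 2273 CPM. Over the whole adipocyte-like class the other 24 type I genes summed to 381 CPM in DMSO and 412 CPM in the inhibitor library. Both values lay between those of smooth muscle-like and fibroblast-like cells. Of the other named classes, macrophage-like cells came next for Ifi27l2a, at 1532 CPM in DMSO and 2162 CPM in the inhibitor library. Smooth muscle-like cells were lowest, at 71.0 and 44.7 CPM. Cluster 2 (475 DMSO and 49 inhibitor cells), with Car3, Adipoq and Cfd among its leading genes, stayed unnamed and is not part of these values. The high level is therefore not shown to be particular to the named adipocyte-like class.

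The balance of the lists also differed between classes. The summed type I level divided by the summed gamma-linked level ran in DMSO from 0.515 in dendritic-like and 0.939 in T cell-like cells to 3.95 in macrophage-like and 16.0 in adipocyte-like cells. Without Ifi27l2a the adipocyte-like ratio was 0.598, and the highest was 2.66, in neutrophil-like cells.

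**Figure D1:**
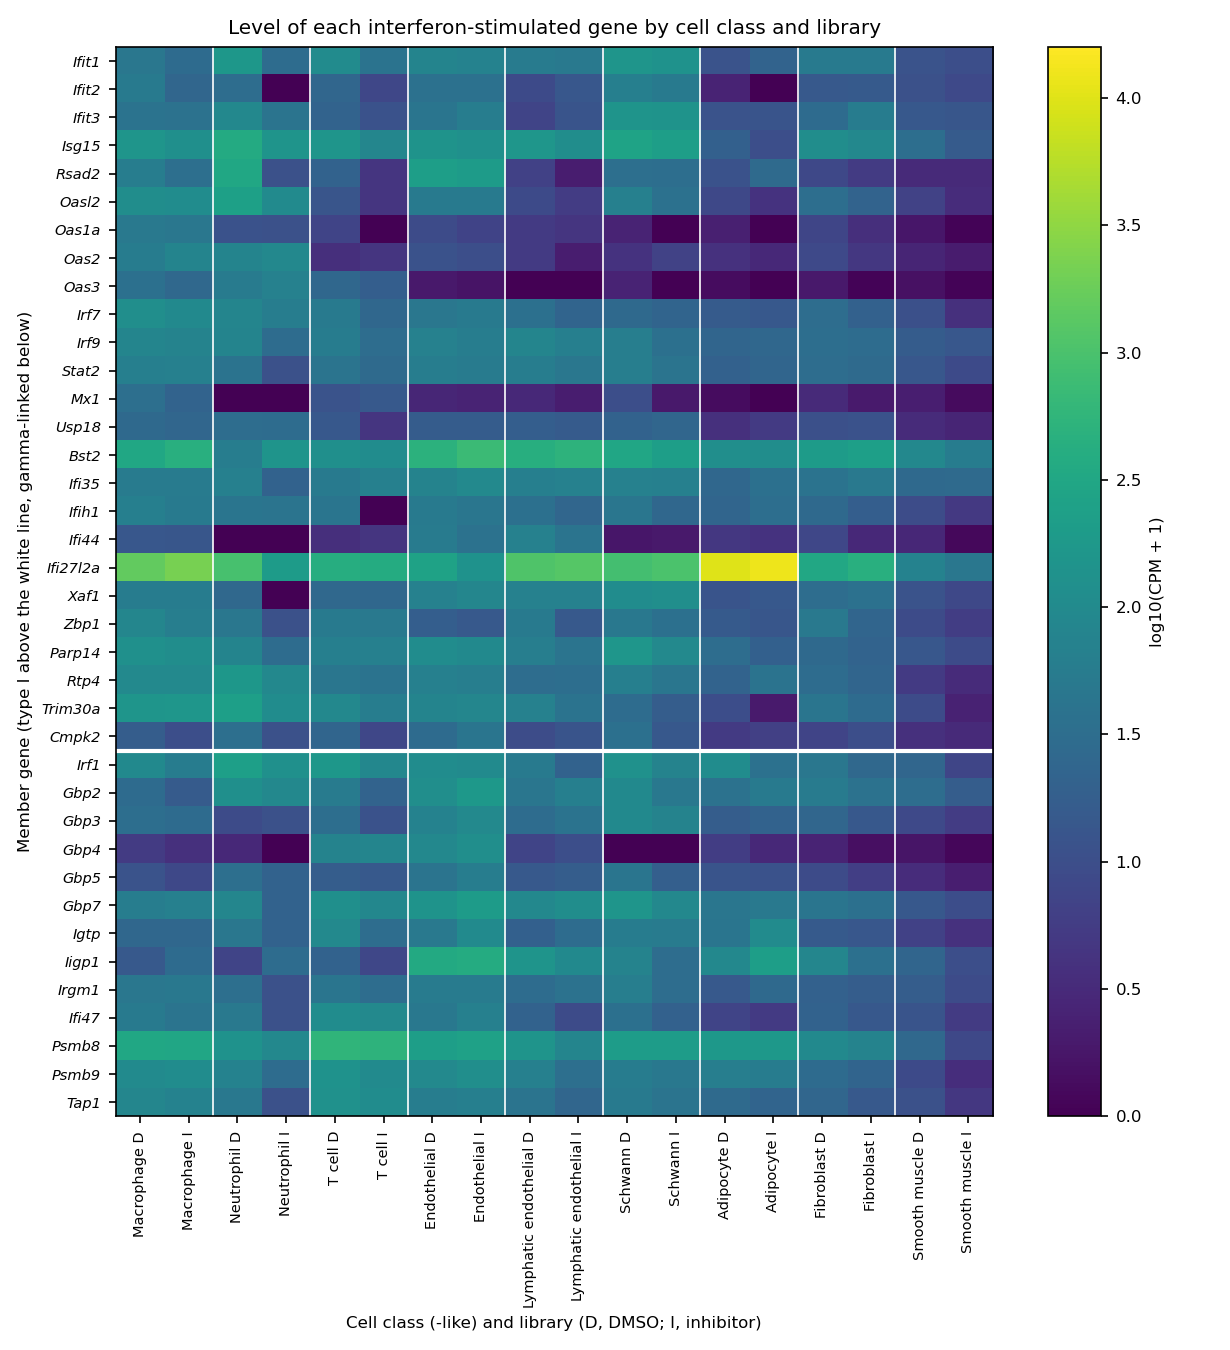
Level of each of the 38 genes (rows; type I above the white line, gamma-linked below it) as log10(CPM + 1) in each class and library (columns; D, DMSO; I, inhibitor). Ifi27l2a in the adipocyte-like columns (9804 and 12270 CPM) is the highest value, and the smooth muscle-like columns hold the lowest levels for most genes.

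**Figure D2:**
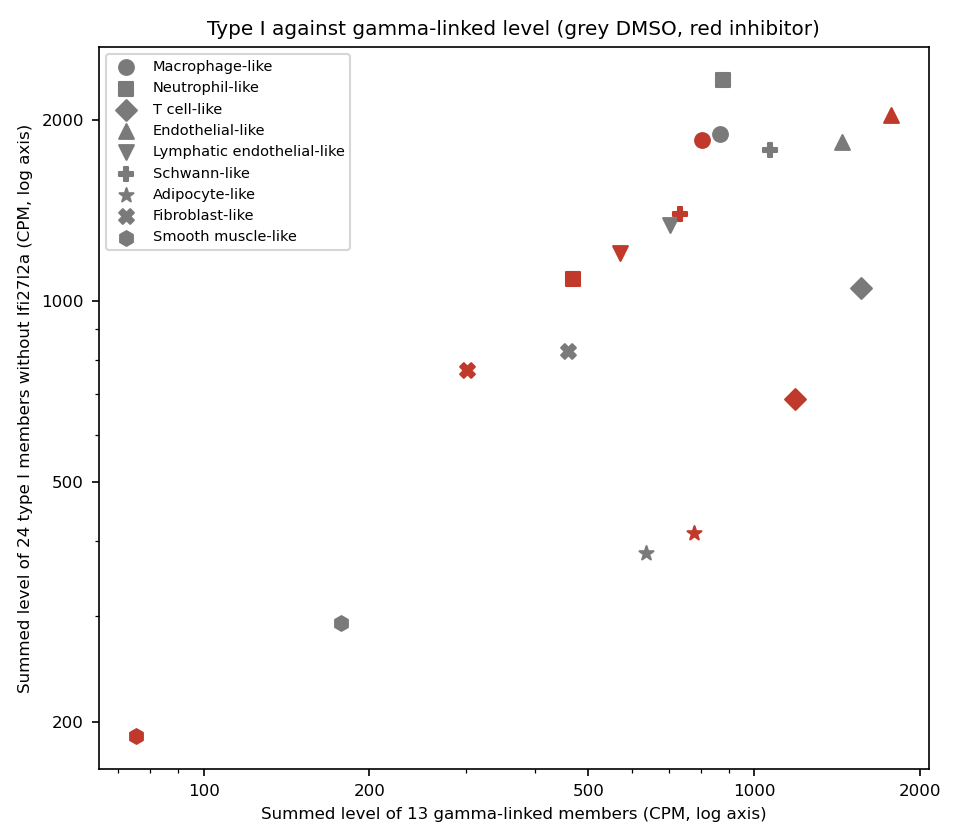
Summed CPM of the 24 type I genes other than Ifi27l2a (y axis) against that of the 13 gamma-linked genes (x axis), both on log scales; each symbol is 1 class in 1 library (grey, DMSO; red, inhibitor). Smooth muscle-like cells lie lowest on both axes (292 and 178 CPM in DMSO), and T cell-like and adipocyte-like cells have more gamma-linked than type I signal.

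To compare treatments, UMIs were summed per class, and a gene was called lower or higher in the inhibitor library where its CPM ratio, inhibitor over DMSO, was at least 1.5-fold from 1 and the exact 95% counting interval left out 1. Genes were measured in a class with at least 20 UMIs and 10 CPM over both libraries. A gene under 10 CPM in 1 library could thus pass through the other library alone. Over the 5 classes, 25 of the 38 members were lower in at least 1 and 3 were higher in at least 1 (Ifit3, Iigp1 and Igtp), where 18.3% of the 11778 genes measured in any of the 5 were lower in at least 1 and 12.1% higher. Members and other genes were not measured in equally many classes. Irf1 was lower in 4 classes, and Gbp2 and Iigp1 in 3. The 11 called nowhere (Oas1a, Oas2, Oas3, Stat2, Usp18, Ifi35, Ifi44, Xaf1, Rtp4, Gbp4 and Psmb9) had ratios of 0.673 to 1.36 where measured. Of these, Oas1a, Oas2, Oas3 and Gbp4 were measured in 1 class each and Ifi44 in 2, so they are not shown to be steady across classes. Setting the median of all genes to 1 by median-of-ratios scaling ended none of the lower or higher calls.

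In macrophage-like cells Ifit1, Ifit2, Rsad2, Mx1, Cmpk2, Irf1 and Gbp2 were lower in the inhibitor library, while Isg15 (ratio 0.814) and Ifit3 (0.965) were not called. Of 36 members measured, 7 were lower and 1 was higher, where 4.50% of 8310 genes were lower and 3.68% higher. Ifit1 went from 44.8 CPM in DMSO to 28.6 CPM (ratio 0.638, 0.520 to 0.777). Ifit2, its relative, went from 49.9 to 23.4 CPM (0.469, 0.375 to 0.580). Rsad2 stood at 58.7 and 33.6 CPM (0.572, 0.474 to 0.685). Mx1, at 32.7 and 20.3 CPM (0.621), and Cmpk2, at 16.5 and 9.22 CPM (0.558), completed the lower type I genes. Cmpk2 passed the 10 CPM minimum through DMSO.

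Of the gamma-linked genes in macrophage-like cells, Irf1 went from 98.2 to 56.5 CPM (0.575, 0.499 to 0.661) and Gbp2 from 28.5 to 15.1 CPM (0.531, 0.401 to 0.695). The other 20 type I genes were within 1.5-fold: Irf7, Irf9 and Stat2, which carry the type I response into the nucleus, had ratios of 0.838, 0.917 and 1.04, and Bst2 and Ifi27l2a, at 1.45 and 1.41, lay just short of a higher call. The median log2 ratio (5 CPM added) of the type I list was -0.12 (order-statistic interval -0.29 to 0.00) and that of the gamma-linked list -0.02, beside 0.02 over all genes measured. All 7 lower members stayed past 1.5-fold when the clusters of the class were given the same weights in both libraries.

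Iigp1 was the member higher in macrophage-like cells, at 13.9 CPM in DMSO and 27.9 CPM in the inhibitor library (2.0, 1.57 to 2.54). Its ratio was 1.42 with the same cluster weights. Cluster 19, led by Cd163, Folr2 and F13a1, made up 3.95% of macrophage-like cells in DMSO and 26.6% in the inhibitor library, and within it Iigp1 stood at 43.5 and 89.7 CPM. Markers of smooth muscle (362 and 940 CPM over 8 genes) and of lymphatic endothelium (47.8 and 198 CPM over 6 genes, among them Lyve1, a leading gene of cluster 19) were higher in inhibitor macrophage-like cells; their part in the result was not tested.

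The macrophage-like clusters with at least 50 cells in each library, 13 and 19, differed in direction. In cluster 13, led by Ms4a7, Cd5l and Trem2 (1114 and 346 cells), 8 of 36 members were lower and none higher, where 5.55% of genes were lower and 2.87% higher; these were the 7 of the whole class and Zbp1 (74.0 and 48.4 CPM). Its summed type I level was 3021 CPM in DMSO and 3375 CPM in the inhibitor library, and without Ifi27l2a 1831 and 1759 CPM. In cluster 19 (59 and 155 cells), 1 of 33 was lower, Irf7 (143 and 88.1 CPM), and 7 were higher, where 4.47% of genes were lower and 6.99% higher. Ifi27l2a stood there at 2276 CPM in DMSO and 4185 CPM in the inhibitor library, Bst2 at 269 and 470 CPM and Rtp4 at 71.3 and 144 CPM. The difference between the clusters was not tested. Cluster 25, led by Chil3, Ly6c2 and Ms4a4c (255 and 44 cells), was 17.1% of the class in DMSO and 7.55% in the inhibitor library. It and cluster 28, led by cell division genes (66 and 38 cells), had too few inhibitor cells to be compared.

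Endothelial-like cells were the class in which the gamma-linked genes leaned upward. All 13 were measured, 11 had a ratio above 1, and the median log2 ratio was 0.35 (0.10 to 0.52), beside -0.04 over 9001 genes. Igtp alone was called higher, from 48.1 CPM in DMSO to 102 CPM in the inhibitor library (2.12, 1.81 to 2.48), where 4.28% of genes were higher. Gbp5 (40.4 and 59.9 CPM; 1.48), Gbp2 (117 and 170 CPM; 1.46), Ifi47 (47.1 and 67.6 CPM; 1.44) and Gbp7 (143 and 197 CPM; 1.38) lay short of the call. Irf1 did not share this, at 109 and 102 CPM (0.941, 0.823 to 1.08), nor did Irgm1, at 55.1 and 54.2 CPM.

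The type I genes of endothelial-like cells were spread around even, with a median of -0.07 (-0.18 to 0.15) that became 0.16 with the same cluster weights. Bst2 was at 505 and 733 CPM (1.45) and Rsad2 at 224 and 203 CPM (0.906). Ifi27l2a was the 1 member called lower, from 258 to 137 CPM (0.532, 0.477 to 0.592), where 10.0% of genes were lower; the call was lost when every cell was weighted equally. It came from cluster 0, where Ifi27l2a went from 526 to 134 CPM, against 198 and 200 CPM in cluster 24 and 127 and 105 CPM in cluster 9. The 8 adipocyte markers summed to 59.5 CPM in DMSO and 11.8 CPM in inhibitor endothelial-like cells, with 1 and 2 of them at 0; their part in this value was not tested.

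The 3 endothelial-like clusters did not move alike. In cluster 9, led by Cytl1, the arterial connexin gene Gja5 and Gkn3 (147 and 179 cells), 8 of 31 members were higher and none lower, where 5.99% of genes were higher and 8.84% lower. Its gamma-linked genes summed to 1177 CPM in DMSO and 1761 CPM in the inhibitor library (1.5, 1.42 to 1.58), with Gbp4 at 55.3 and 108 CPM, Gbp7 at 90.7 and 170 CPM and Psmb9 at 59.5 and 121 CPM. In cluster 24, led by Gpihbp1, which anchors lipoprotein lipase in capillaries, Btnl9 and Rbp7 (399 and 188 cells), 5 of 35 were higher and none lower, where 3.70% were higher and 7.03% lower. These were Ifit1 (91.3 and 140 CPM), Bst2 (556 and 950 CPM), Cmpk2 (62.6 and 115 CPM), Gbp5 and Igtp.

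Cluster 0, led by Tmem252, Vwf and Plvap (185 and 127 cells), went the other way in CPM. Of its 35 measured members 9 were lower and none higher, where 9.73% of genes were lower and 4.25% higher. Rsad2 stood at 62.6 and 6.28 CPM (0.100, 0.0204 to 0.301), Ifit2 at 29.2 and 4.19 CPM (0.143, 0.0169 to 0.545), Stat2 at 57.3 and 27.2 CPM and Iigp1 at 461 and 272 CPM. Rsad2 and Ifit2 were under 10 CPM in the inhibitor library and passed the minimum through DMSO. Their wide intervals reflect few inhibitor UMIs. These differences between clusters were not tested.

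In Schwann-like cells, the glia of peripheral nerve, 13 of 32 measured members were lower and none higher, where 5.50% of 9492 genes were lower and 4.61% higher. The gamma-linked median was -0.74 (-0.94 to -0.24) and the type I median -0.31 (-0.70 to -0.10), beside 0.01 over all genes. Irf1 stood at 134 CPM in DMSO and 74.0 CPM in the inhibitor library (0.550, 0.425 to 0.706). Gbp2 went from 95.9 to 47.4 CPM, Gbp5 from 42.6 to 18 CPM and Gbp7 from 153 to 89.2 CPM, all guanylate-binding proteins. Of the immunity-related GTPases, Iigp1 went from 75.6 to 30.4 CPM (0.402, 0.267 to 0.586), Irgm1 from 62.5 to 30.4 CPM and Ifi47 from 35.0 to 19.0 CPM. The antigen-processing members were within 1.5-fold, with Psmb8 at 207 CPM in both libraries (0.998), Psmb9 at 56.9 and 47.4 CPM and Tap1 at 52.1 and 39.9 CPM.

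The lower type I genes of Schwann-like cells were 6. Parp14 went from 163 to 94.9 CPM (0.583, 0.464 to 0.727), Oasl2 from 66.0 to 36.1 CPM and Ifih1 from 43.4 to 24.7 CPM. Irf9 stood at 61.7 and 35.1 CPM, Trim30a at 29.4 and 16.1 CPM, and Cmpk2 at 34.6 and 13.3 CPM (0.384, 0.202 to 0.679), the last from 87 and 14 UMIs. Ifit1 (152 and 139 CPM), Ifit3 (149 and 143 CPM) and Isg15 (270 and 225 CPM) were near even. With the same cluster weights 11 of the 13 stayed past 1.5-fold, all but Parp14 and Trim30a, and with every cell weighted equally 9 did.

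Cluster 30, led by Fabp7, Ptn and Mmd2 (167 and 75 cells), had 15 of 32 members lower and none higher, where 4.56% of genes were lower and 5.10% higher. Cluster 14, led by Kcna1, Cdh19 and Ank3 (219 and 80 cells), had 3 lower (Irf1, Iigp1 and Oasl2) and 3 higher (Igtp, Xaf1 and Ifi27l2a) of 32, where 4.69% were lower and 4.67% higher. Cluster 29, with Ncmap and the myelin gene Mbp among its leading genes, held little of either list (576 CPM type I and 231 CPM gamma-linked in DMSO) and had 0 of 6 called, where 4.74% of genes were lower and 4.60% higher; it was 14.8% of the class in DMSO and 31.4% in the inhibitor library. The 7 neutrophil markers in Schwann-like cells summed to 111 CPM in DMSO and 7.59 CPM in the inhibitor library, with 4 at 0 in the latter; their part in the result was not tested.

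**Figure D3:**
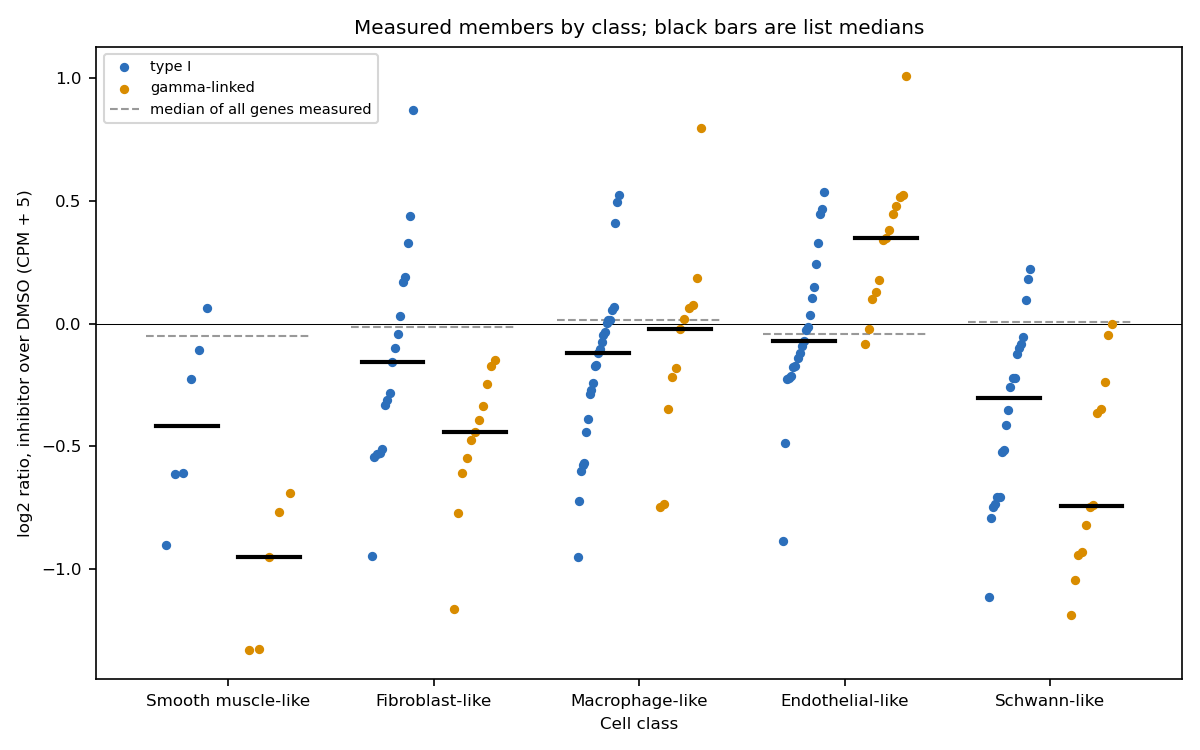
Log2 ratio of inhibitor to DMSO, with 5 CPM added, of each measured member (points, by list) in the 5 classes; black bars are list medians and dashed lines the medians of all genes measured. The gamma-linked median is -0.95 in smooth muscle-like, -0.44 in fibroblast-like, -0.02 in macrophage-like, 0.35 in endothelial-like and -0.74 in Schwann-like cells. The smooth muscle-like median rests on 5 genes, of which Irf1, Psmb8, Iigp1 and Irgm1 passed the minimum level through DMSO.

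In fibroblast-like cells the gamma-linked genes were low as a group while the type I genes were mixed. Of 28 members measured, 8 were lower and 1 was higher, where 7.59% of 8564 genes were lower and 4.50% higher. All 11 measured gamma-linked genes had a ratio below 1, with a median of -0.44 (-0.77 to -0.17), beside -0.01 over all genes. Irf1 went from 45.9 CPM in DMSO to 24.8 CPM in the inhibitor library (0.540, 0.489 to 0.596) and Iigp1 from 82.7 to 34.1 CPM (0.413, 0.380 to 0.448). Gbp3 stood at 23.0 and 13.4 CPM and Tap1 at 23.0 and 14.2 CPM. Of the type I list, Zbp1 went from 48.2 to 22.6 CPM (0.469, 0.423 to 0.519), Oasl2 from 31.9 to 20.7 CPM, Irf7 from 30.3 to 19.2 CPM and Ifih1 from 26.4 to 16.7 CPM. Trim30a lay just outside, at 42.6 and 28.4 CPM (0.667).

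Ifit3 went the other way in fibroblast-like cells, from 28.9 to 56.9 CPM (1.97, 1.81 to 2.14), while its chromosome 19 neighbours Ifit1 (53.6 and 52.0 CPM) and Ifit2 (13.8 and 14.3 CPM) were near even. Ifit3 has a near-identical copy, Ifit3b, so its count is uncertain wherever reads fit both. The clusters behind the class differed between libraries: clusters 1 and 8 were 26.6% and 32.8% of it in DMSO but 6.64% and 5.72% in the inhibitor library, and clusters 5 and 6 were 13.1% and 19.2% against 47.1% and 37.4%. With the same cluster weights 2 of the 8 lower members stayed past 1.5-fold, Irf1 (0.508) and Iigp1 (0.664), and Ifit3 stayed higher (1.78). Macrophage markers in fibroblast-like cells summed to 171 and 67.1 CPM over 8 genes; their part was not tested.

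The clusters of fibroblast-like cells differed. In cluster 1, led by Cxcl13, Col6a5 and Penk (533 and 123 cells), type I genes summed to 1394 and 2077 CPM (1.49, 1.43 to 1.55; without Ifi27l2a 922 and 1126 CPM) and gamma-linked genes to 560 and 479 CPM (0.855, 0.792 to 0.921); 5 of 31 members were lower and 5 higher, where 7.48% and 6.64% of genes were. In cluster 6, led by C7, Myoc and Clec3b (384 and 693 cells), the sums were 1061 and 1310 CPM for type I (without Ifi27l2a 705 and 753 CPM) and 415 and 285 CPM for gamma-linked genes; 6 of 28 were lower and 3 higher, where 6.61% and 4.71% were. In cluster 5, led by Angptl7, Fmod and Adamtsl2 (263 and 873 cells), Irf1 was the 1 lower of 29 (59.5 and 27.9 CPM) and Ifit1 and Ifit3 the 2 higher, where 6.50% and 2.78% of genes were. Cluster 8, led by Cxcl14, Crabp2 and Cilp (658 and 106 cells), had 5 of 28 lower, among them Ifit1 (74.2 and 33.6 CPM), and 1 higher, where 7.95% and 4.26% were.

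Cluster 32, led by the cell division genes Ube2c, Hmmr and Cenpf (103 and 50 cells), had both lists low. It was named from 8 fibroblast markers but also carried 8 smooth muscle markers. Whether its makeup differed between the libraries was not tested. Of 24 members 19 were lower and none higher, where 12.7% of genes were lower and 6.38% higher. Its type I genes summed to 823 CPM in DMSO and 403 CPM in the inhibitor library (0.490, 0.450 to 0.533), and its gamma-linked genes to 350 and 171 CPM. Zbp1 stood at 42.0 and 11.6 CPM and Oasl2 at 22.2 and 1.65 CPM (0.0743, 0.0149 to 0.227). The inhibitor level of Oasl2 lay under the 10 CPM minimum and rests on few UMIs.

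Smooth muscle-like cells, which make the media of the vessel, held little of these genes and less in the inhibitor library: 540 CPM over all 38 members in DMSO and 310 CPM in the inhibitor library. Of 11 members measured, 8 were lower and none higher, where 7.92% of 8030 genes were lower and 3.60% higher. All 5 measured gamma-linked genes were among them, with a median of -0.95 (-1.33 to -0.69), beside -0.05 over all genes. Irf1 went from 23.7 to 6.45 CPM (0.273, 0.229 to 0.324) and Psmb8 from 25.2 to 7.0 CPM (0.278, 0.235 to 0.328). Iigp1 stood at 22.3 and 9.13 CPM, Gbp2 at 31.1 and 16.2 CPM and Irgm1 at 16.3 and 8.21 CPM. Of the type I genes, Isg15 went from 32.5 to 15.1 CPM (0.464, 0.408 to 0.528), Bst2 from 88.7 to 56.4 CPM and Ifi27l2a from 71.0 to 44.7 CPM.

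The makeup of smooth muscle-like cells differed greatly between libraries. Cluster 18, led by Igfbp2, Hs6st2 and Cemip (353 and 210 cells), was 45.2% of the class in DMSO and 6.81% in the inhibitor library, and cluster 21, led by Mylk4, Tcap and Sost (290 and 2082 cells), was 37.1% and 67.5%. The 38 genes summed to 712 and 607 CPM in cluster 18 against 322 and 293 CPM in cluster 21. With the same cluster weights Irf1 (0.310) and Psmb8 (0.592) stayed past 1.5-fold, whereas Isg15 was even (0.995), Bst2 turned to 1.10, and the gamma-linked median was -0.41. Within cluster 18, 6 of 19 members were lower, Irf1 at 25.8 and 13.7 CPM among them, and 2 were higher, Ifit1 (17.8 and 37.6 CPM) and Ifit3 (16.8 and 35.9 CPM), where 7.10% of genes were lower and 2.24% higher. In cluster 21, 0 of 8 were called, where 4.58% were lower and 3.07% higher, and in cluster 22, led by Pln, Sorbs2 and Des, 2 of 5 were lower and none higher, where 9.41% and 3.88% were.

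Markers of other cells in smooth muscle-like cells differed between libraries in both directions. The 8 fibroblast markers summed to 6154 CPM in DMSO and 1539 CPM in the inhibitor library, the 8 macrophage markers to 135 and 45.1 CPM and the 8 T cell markers to 5.86 and 1.63 CPM, with none at 0. The 5 erythroid markers went from 3.93 to 108 CPM, with 1 (Alas2) at 0 in DMSO, and the 6 pericyte markers from 3009 to 3935 CPM. Their part in the result was not tested. With members limited to those at 20% or more of the level of their highest class, 1 was left and 0 were lower.

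**Figure D4:**
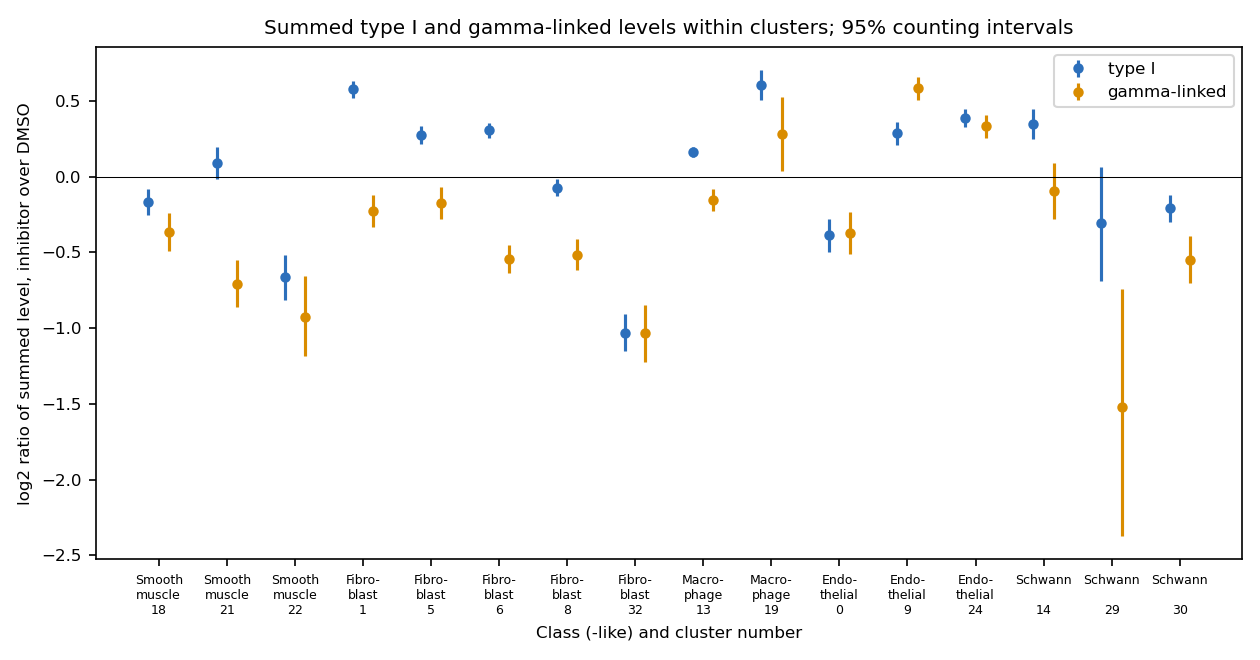
Log2 ratio of inhibitor to DMSO of the summed level of each list (type I with Ifi27l2a) in the 16 clusters of the compared classes with at least 50 cells per library; bars are exact 95% counting intervals. Both lists lie above 0 in endothelial-like clusters 9 and 24 and macrophage-like cluster 19, and below 0, among others, in endothelial-like cluster 0 and fibroblast-like cluster 32.

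Classes with too few cells to compare, and unnamed clusters, are given as values. In neutrophil-like cells (241 and 51 cells) 8 of 26 members were lower and 1 higher, where 5.61% of genes were lower and 7.53% higher: Isg15 stood at 364 and 150 CPM, Ifit1 at 164 and 29.9 CPM (0.183, 0.0369 to 0.554) and Ifi27l2a at 940 and 199 CPM, with Bst2 higher at 60.0 and 150 CPM. In T cell-like cells (240 and 67 cells) 6 of 32 were lower and none higher, where 5.88% and 3.64% were, among them Irf1 (168 and 86.5 CPM), Isg15 (152 and 83.1 CPM) and Igtp (94.2 and 31.1 CPM). In lymphatic endothelial-like cells (136 and 86 cells) 9 of 28 were lower and none higher, where 9.11% and 5.03% were, among them Psmb8 (149 and 79.4 CPM) and Zbp1 (51.4 and 13.8 CPM).

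Cluster 11, unnamed and led by Cd209a, Ifitm1 and Klrd1 (348 and 169 cells), had 9 of 34 members lower and none higher, where 8.71% and 3.22% of genes were. Isg15 stood there at 185 and 89.5 CPM and Tap1 at 178 and 98 CPM. Cluster 17, unnamed and led by Retnla, Lyz1 and Ear2 (356 and 149 cells), had 6 of 34 lower and 1 higher, where 6.93% and 4.0% were; Rsad2 stood at 64.6 and 19.9 CPM and Ifi27l2a, the higher one, at 1172 and 2014 CPM.

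To see whether levels came from many cells or from few, each cell was thinned to 2000 UMIs, shallower cells were left out, and the type I genes with a UMI were counted. At least 5 of the 25 were found in 33.9% of 1474 macrophage-like DMSO cells (31.5 to 36.4, a Clopper-Pearson 95% interval over the cells of 1 library, as for the other shares above 0 here) and 34.7% of 559 inhibitor cells (30.8 to 38.8). In endothelial-like cells the shares were 22.7% (19.6 to 26.1) and 26.2% (21.8 to 30.9), with 70 and 112 cells left out, and in Schwann-like cells 17.3% (13.7 to 21.5) and 16.6% (11.7 to 22.5), with 61 and 27 left out. Fibroblast-like cells had 5.28% and 3.90%, and smooth muscle-like cells 0.519% and 0.230%. The intervals of the libraries overlapped in all 5 classes. Before thinning the macrophage-like shares were 81.1% and 75.1% and the endothelial-like shares 64.7% and 45.1%, at median depths of 5388 and 3932 UMIs in the latter. The cut is a point on a range: 234 and 84 macrophage-like cells held 4 of the genes and 157 and 59 held 5.

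At least 10 of the 25 genes were found in 75 macrophage-like DMSO cells (5.09%, 4.02 to 6.34) and 13 inhibitor cells (2.33%, 1.24 to 3.94), whose intervals did not overlap. In its main cluster, 13, they did, at 4.64% (3.47 to 6.06) and 2.35% (1.02 to 4.58). Cluster 25, a smaller part of the class in the inhibitor library, gave 20 of the 75 DMSO cells and 1 of the 13 inhibitor cells. These were 7.87% (4.88 to 11.9) and 2.27% (0.0575 to 12.0) of its cells. The part of cluster shares in the class values was not tested. Endothelial-like cells had 18 (2.72%, 1.62 to 4.27) and 5 (1.31%, 0.426 to 3.03), which did overlap, and Schwann-like cells 10 (2.55%, 1.23 to 4.64) and 0 of 199, where 3 cells would be 1.51%. The highest count was 22, in a macrophage-like DMSO cell of cluster 25. Of 16 clusters, the share with at least 5 genes had intervals apart in 1, endothelial-like cluster 24, at 32.9% (28.1 to 37.9) in DMSO and 48.2% (40.5 to 56.0) in the inhibitor library. Across cells, Pearson's r between the numbers of type I and gamma-linked genes was 0.45 and 0.39 in macrophage-like DMSO and inhibitor cells and 0.54 and 0.56 in Schwann-like cells; cells of a class share a library and the thinned depth, and these values are descriptions.

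**Figure D5:**
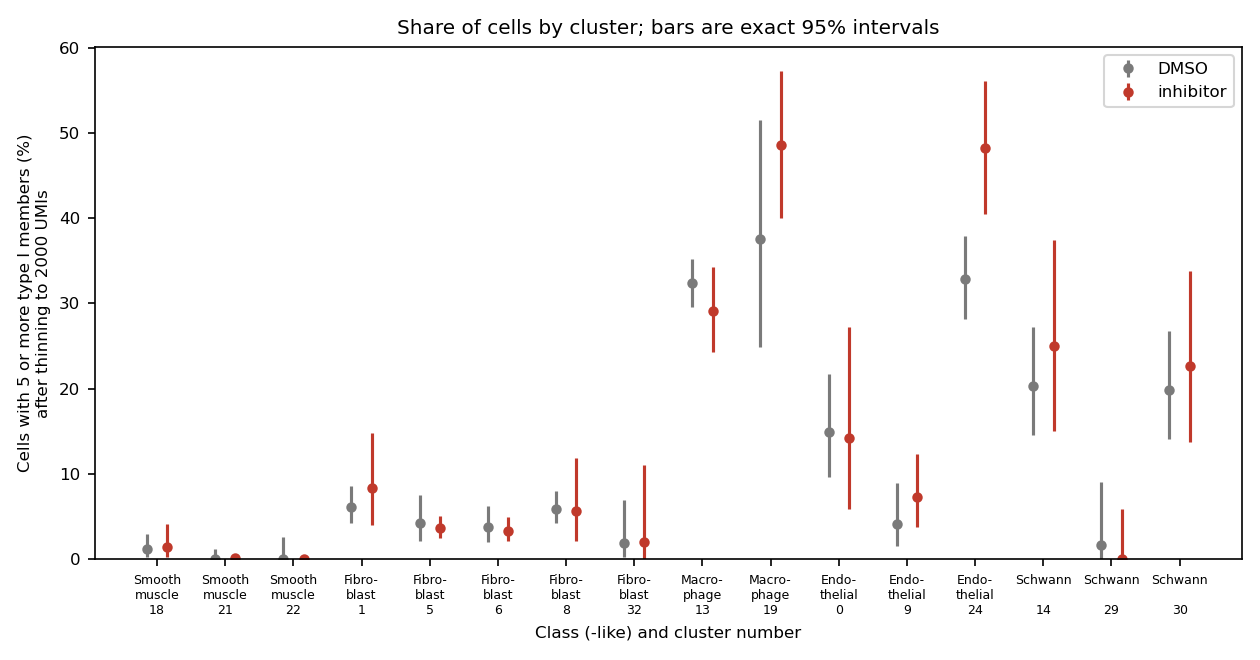
Share of cells (%) with UMIs of at least 5 of the 25 type I genes after thinning to 2000 UMIs, by cluster and library (grey, DMSO; red, inhibitor); bars are exact 95% intervals. Endothelial-like cluster 24 reaches 48.2% in the inhibitor library, and smooth muscle-like clusters lie near 0.

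The interferons themselves were scarce. Ifnb1, which encodes interferon beta, had 29 UMIs in 19 DMSO cells, 20 of the UMIs in macrophage-like cells, and 2 UMIs in 1 inhibitor cell. Ifng, which encodes interferon gamma, had 252 UMIs in 84 DMSO cells, 204 of them in T cell-like cells, and 34 UMIs in 14 inhibitor cells, 33 of them in T cell-like cells. Within T cell-like cells that was 183 CPM (159 to 210) in DMSO and 114 CPM (78.6 to 160) in the inhibitor library. Ifnk had 3 UMIs in DMSO and 0 in the inhibitor library. Ifna1, Ifna2, Ifna4, Ifna5, Ifnl2 and Ifnl3 had 0 UMIs in both, where 3 cells with a UMI would be 0.0357% in DMSO and 0.0404% in the inhibitor library.

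The other genes of the pathway are read against the shares of all genes lower in each class: 7.92% in smooth muscle-like, 7.59% in fibroblast-like, 4.50% in macrophage-like, 10.0% in endothelial-like and 5.50% in Schwann-like cells. Of 8 receptors and kinases, 6 or 7 were measured per class, 1 was lower in each of smooth muscle-like, fibroblast-like and endothelial-like cells, and none was called in macrophage-like or Schwann-like cells. Irf8, a transcription factor, was lower in endothelial-like cells (36.4 and 14.7 CPM; 0.402). Of the sensors and adaptors, 3 of 5 measured were lower in smooth muscle-like cells, 2 of 9 in fibroblast-like, 1 of 14 in macrophage-like, 3 of 8 in endothelial-like and 1 of 6 in Schwann-like cells; they included Eif2ak2, the RNA-activated kinase PKR, in smooth muscle-like (26.3 and 13.7 CPM) and the kinase Ikbke in macrophage-like cells (29.9 and 14.9 CPM). In macrophage-like cells 1 of 14 is near the share over all genes. Given the same cluster weights, the calls kept were 1 of 3, 0 of 2, 1 of 1, 2 of 3 and 1 of 1 in these classes, in the same order.

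Socs3, a feedback inhibitor of cytokine receptors that many cytokines induce, was lower in all 5 classes. It went from 51.1 to 18.9 CPM in smooth muscle-like, 129 to 69.7 CPM in fibroblast-like, 187 to 117 CPM in macrophage-like, 123 to 54.5 CPM in endothelial-like and 767 to 403 CPM in Schwann-like cells, with ratios of 0.370 to 0.627. It was just short of 1.5-fold in fibroblast-like (0.687) and macrophage-like cells (0.669) with the same cluster weights.

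Of the interferon-induced chemokines, every one measured in fibroblast-like cells was lower (4 of 4), as were 2 of 4 in macrophage-like, 2 of 3 in endothelial-like and 2 of 3 in Schwann-like cells. When cluster weights were the same, Cxcl9 alone of the 4 stayed past 1.5-fold in fibroblast-like cells, and all the lower ones did in the other 3 classes. Cxcl10, which attracts T cells, went from 60.9 to 19.5 CPM in fibroblast-like, 155 to 74.5 CPM in macrophage-like, 41.1 to 19.8 CPM in endothelial-like and 229 to 113 CPM in Schwann-like cells. Cxcl9, its gamma-induced relative, had 480 UMIs in macrophage-like DMSO cells and 1 in inhibitor cells (ratio 0.00623, 0.000157 to 0.0349) and 1051 and 45 UMIs in fibroblast-like cells (28.5 and 2.10 CPM). In endothelial-like cells Cxcl9 stood at 91.5 and 80.0 CPM (0.874, 0.751 to 1.01), a value singled out after it was seen.

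Ccl2 and Ccl7, which attract monocytes, were lower in fibroblast-like cells, Ccl2 at 262 and 142 CPM and Ccl7 at 274 and 123 CPM. Ccl2 was lower also in endothelial-like (19.6 and 4.46 CPM) and Schwann-like cells (71.6 and 18 CPM). Cxcl11 was higher in Schwann-like cells, from 28 and 22 UMIs (1.87, 1.02 to 3.40; 1.21 with the same cluster weights).

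The 9 other genes of MHC class I presentation were measured in all 5 classes. In smooth muscle-like cells 5 were lower, among them the light chain B2m (711 and 374 CPM; 0.526) and the inducible proteasome subunit Psmb10 (32.4 and 14.3 CPM; 0.442), the class in which Psmb8 was lower too. Of the 5, Psmb10 alone (0.632) stayed past 1.5-fold with the same cluster weights, and B2m was at 0.744. None was called in fibroblast-like, macrophage-like or endothelial-like cells. In Schwann-like cells the heavy chain H2-D1 was higher (1449 and 2476 CPM; 1.71, 1.62 to 1.80) and the peptide trimmer Erap1 lower (29.8 and 17.1 CPM; 0.572), the latter at 0.731 with the same cluster weights.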

How the data were processed

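Each file holds raw counts of UMIs by gene and cell barcode, as deposited by the authors; Cell Ranger 6.1.1 is named per the file headers, and GRCm38 and Seurat per the submitters' processing notes. Barcodes below 200 genes (18 DMSO, 10 inhibitor) or above 20% mitochondrial UMIs (443 and 282) were removed. Scrublet set an unusable threshold in DMSO (0.659), so that of the inhibitor library (0.214) served both, removing 253 and 440 doublets. Clustering used scanpy 1.11.5 (2000 variable genes, 30 components, 15 neighbours, Leiden resolution 1, no integration). A cluster name needed 3 markers and a median of 1000 UMIs. Markers counted only where detected in at least 20% of the cluster's cells. Their mean log2 excess had to reach 1.5 over the lower quartile of the other clusters, so a cluster could qualify for several types. No other type could have more markers among the 10 leading genes. A cluster with none of its own markers leading could still be named, unless its depth was low for the library. Ratios are of CPM, with exact conditional binomial intervals. Alternatives varied filters, doublets, clustering, scaling, weights and depth. Named were all members, with levels where called, and called pathway genes, up to 4 per class and direction; other values were singled out after they were seen. Promoters are from RefSeq, gene positions from GENCODE. Some items are not reported here. The members and lists were chosen with earlier results of these data known.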

Additional observations from a re-analysis of the deposited data

Results flagged for a closer look

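Iigp1 was called in opposite directions in different classes. Its ratio of inhibitor to DMSO was 0.409 in smooth muscle-like, 0.413 in fibroblast-like and 0.402 in Schwann-like cells but 2.0 in macrophage-like cells. With the same cluster weights it was 0.667 and 1.42 in smooth muscle-like and macrophage-like cells, where the calls were lost, and 0.664 and 0.438 in fibroblast-like and Schwann-like cells, where they were kept. The difference between classes was not tested.

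The gamma-linked genes leaned in opposite directions as a list. Their median log2 ratio was -0.95 in smooth muscle-like, -0.44 in fibroblast-like and -0.74 in Schwann-like cells and 0.35 in endothelial-like cells. The smooth muscle-like median rests on 5 genes, of which Irf1, Psmb8, Iigp1 and Irgm1 passed the minimum level through DMSO. With the same cluster weights that median was -0.41. With 1 library per group this difference was not tested either.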

How the results depend on the processing

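Of 346 alternative values, 265 stayed near the reported value, 81 moved and 0 reversed. Only a list median whose interval left out 0 could count as reversed, so counts and shares could not. The endothelial-like type I median, whose interval held 0, changed sign with the same cluster weights and counted as moved. The cluster weights for genes outside the 38 were added after seeing the data. No paired analysis was possible because each group is 1 library. In smooth muscle-like cells 11 of 38 members passed the minimum level. The cause of the moves was not tested, other than that the stricter filters leave fewer genes.

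Counts of lower members in smooth muscle-like cells (8) became 28 with no minimum, 2 at 50 CPM, 0 with members at 20% of their highest class, 2 with the same cluster weights (gamma-linked median -0.41) and 5 in thinned cells. In fibroblast-like cells the 8 lower became 16 with no minimum, 1 at 50 CPM (0 higher, gamma-linked median -0.78), 4 with the 20% filter, and 2 lower and 2 higher with the same weights. In macrophage-like cells there were 2 lower and 0 higher at 50 CPM, and the 1 higher became 0 with the 20% filter or the same weights, 2 with cells weighted equally and 5 in thinned cells. In endothelial-like cells the 1 lower became 0 with the 20% filter, 3 with doublets kept (type I median -0.19), 4 at Leiden resolution 0.5 and 0 in thinned cells. The 1 higher became 2 with at least 1000 genes per cell, 7 at resolution 0.5, 3 with cells weighted equally, 4 with median-of-ratios scaling, 3 with the same weights (type I median 0.16) and 2 in thinned cells. In Schwann-like cells 8 were lower at 50 CPM, 3 were higher with cells weighted equally, and 1 was higher in thinned cells (gamma-linked median -1.05).

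Shares of cells with at least 5 type I genes, DMSO then inhibitor, were without thinning 19.7% and 4.83% in smooth muscle-like, 67.1% and 41.0% in fibroblast-like, 81.1% and 75.1% in macrophage-like, 64.7% and 45.1% in endothelial-like and 51.9% and 42.5% in Schwann-like cells. At 1000 UMIs they were 1.35% and 0.813%, 12.5% and 14.8%, 6.63% and 8.43%, and 7.62% and 6.94% in the last 4 classes. With at least 4 genes they were 9.94% and 7.86%, 49.8% and 49.7%, 37.5% and 34.0%, and 29.6% and 26.1%. With at least 6 they were 2.15% and 1.95%, 23.3% and 24.2%, 14.1% and 17.5%, and 12.8% and 9.05%.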
